A study of Mus musculus with 54 samples.

Results

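The genes described here rose within 4 h of stimulation in naive CD4+ T cells and had gone back to about their starting level, or below it, at 20 h. They were 129 of the 55385 genes listed, and of the 32290 genes with at least 1 read in the experiment used to choose them. In wild-type (WT) cells of the CD5/CD6 experiment, counts were scaled to the column total as CPM, and log2(CPM + 1) was averaged over the 3 libraries of each time. Genes were kept when the 4 h mean was at least 1.5 above the 0 h mean and the 20 h mean was no more than 0.5 above it. These 9 WT libraries chose the genes, so their values are a description and carry no test. The other genotypes of both experiments were not used in the choice.

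Engagement of the T cell receptor (TCR) and of CD28 starts kinase cascades, calcium entry and small GTPase signaling, and these switch on a first wave of genes within minutes to hours. Many genes of this wave make transcription factors, secreted ligands, or proteins that dampen the signal, and their RNAs are often short-lived, so that levels fall soon after transcription slows. LAT is the membrane adaptor that, once phosphorylated by ZAP-70, gathers phospholipase C, GRB2 and other effectors, whereas CD5 and CD6 are surface receptors of T cells that also bind signaling proteins after TCR engagement.

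RNA was sequenced from naive CD4+ T cells of C57BL/6 mice aged 8 to 10 weeks, pooled from lymph nodes and spleen. In the CD5/CD6 experiment (36 libraries), WT, Cd5-/-, Cd6-/- and Cd5-/-Cd6-/- cells were isolated with a magnetic kit. The Cd5-/-Cd6-/- mice came from a single CRISPR deletion line. In the LAT experiment (18 libraries), cells of Lat fl-dtr maT-Cre mice were sorted as human DTR+ (called sorted WT here) or human DTR- (Lat-/-). The Cre transgene is active in mature T cells, and sorted WT cells also carry the floxed allele with the human DTR cassette. Cells of every genotype were analyzed without stimulation (0 h) or after 4 h and 20 h with plate-bound anti-CD3 at 3 µg/ml and soluble anti-CD28 at 1 µg/ml, and the labels call the 3 libraries of each condition biological replicates. RNA of 0 h cells was taken right after purification, so effects of culture and of stimulation cannot be told apart.

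Totals ranged from 20554354 to 45222554 reads in the CD5/CD6 experiment and from 17784644 to 28501095 in the LAT experiment. Lat was at 314, 351 and 262 CPM in sorted WT cells at 4 h and at 6.79, 5.69 and 11.3 CPM in Lat-/- cells. At 0 h, library 2 of the cells labelled Cd5-/- held Cd5 at 719 CPM and Cd6 at 329 CPM, where the other 2 libraries held Cd5 at 129 and 105 CPM. The 0 h library 2 labelled Cd6-/- held Cd5 at 172 CPM and Cd6 at 1200 CPM, where the other 2 held Cd6 at 349 and 251 CPM. Both libraries therefore go against their labels. For the 4 h rise, the calls, median fold changes and counts of genes that met the rule are given with and without them. Library 1 of the 0 h cells was the highest of the 3 in all 4 genotypes of the CD5/CD6 experiment for 22 of the 129 genes (17.1%), against 4.91% of all genes that averaged 10 counts or more. Cd69 read 539, 274 and 158 CPM there in WT cells, and Sik1, a salt-inducible kinase, read 229, 72.2 and 33.8 CPM. T cell markers summed to 5460 CPM or more in every 4 h library of WT, sorted WT and Lat-/- cells. Myeloid markers (8 genes) summed to between 22.1 and 39.3 CPM in magnetically isolated WT cells at 4 h, to between 1.05 and 2.49 CPM in sorted WT cells, and to between 0.579 and 1.61 CPM in Lat-/- cells. B cell markers (7 genes) summed to between 81.6 and 189 CPM in sorted WT cells at 4 h and to between 308 and 460 CPM in Lat-/- cells, where Ms4a1, Cd22 and Pax5 had no read. These B cell sums rested mostly on Ighm, which reached 1150 CPM in the LAT experiment, against 3.75 CPM for the next marker, Cd79b. The part of such cells in the differences between these genotypes was not tested.

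For 2 host transcripts of microRNAs in the set, mature sequences are shown because they name the small RNAs that could follow from them. Other members also overlap a microRNA locus on the same strand and are not shown, among them Gm26532 (Mir24-2), Cdk17 (Mir1931), Rnf19a (Mir8097), Atp9a (Mir7004), Ecm1 (Mir7014) and Sh2b3 (Mir7031). 1700016P03Rik (chr11:75172560-75177633, plus strand, GRCm38) contains miR-212 and miR-132, and Mir17hg (chr14:115042879-115046727, plus strand) contains the miR-17 cluster. Mature sequences from RefSeq (GRCm38.p6) are given 5′ to 3′ with the seed, bases 2 to 8, in capitals.
mmu-miR-212-3p: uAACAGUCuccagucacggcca
mmu-miR-132-3p: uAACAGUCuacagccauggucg
mmu-miR-17-5p: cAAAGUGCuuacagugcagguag
mmu-miR-20a-5p: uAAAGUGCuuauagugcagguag
mmu-miR-19a-3p: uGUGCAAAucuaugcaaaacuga
mmu-miR-19b-3p: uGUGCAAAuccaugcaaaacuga
mmu-miR-92a-3p: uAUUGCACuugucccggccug
miR-212-3p and miR-132-3p share the seed AACAGUC, miR-17-5p and miR-20a-5p share AAAGUGC, and miR-19a-3p and miR-19b-3p share GUGCAAA. The libraries counted host transcripts and hairpin loci, not mature microRNAs.

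AU-rich elements in the 3′ UTR are known to shorten the life of many early RNAs, and their core nonamer TTATTTATT was found in 18 of the 106 protein-coding members with an annotated 3′ UTR. For 6 members the site is shown with 10 bases on either side, as DNA of the sense strand in GRCm38, with the nonamer in capitals.
Fosl2: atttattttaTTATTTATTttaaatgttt
Areg: tatttaagtgTTATTTATTttatagctca
Maff: ttccacactcTTATTTATTgcacgaatct
Nab2: gtacagtagaTTATTTATTttgttatttt
Lcp2: accacatgatTTATTTATTttctttgatg
Zfp36l1: aactgttggaTTATTTATTttagaaattc
The sites lie at chr5:32156871-32156899 (Fosl2), chr5:91148382-91148410 (Areg), chr15:79358778-79358806 (Maff), chr10:127660946-127660974 (Nab2, minus strand), chr11:34090839-34090867 (Lcp2) and chr12:80108167-80108195 (Zfp36l1, minus strand). Fosl2 encodes an AP-1 subunit, Areg a ligand of the EGF receptor, Maff a small MAF factor, Nab2 a corepressor of EGR proteins, Lcp2 the adaptor SLP-76, and Zfp36l1 a protein that itself binds AU-rich elements and speeds RNA decay.

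RefSeq promoter windows of 300 bases (250 before the start and 50 after it) were at hand for 79 of the 129 genes. The 150 bases before the start in GRCm38.p6 are shown for 4 of them because they hold a cAMP response element (CRE, TGACGTCA) or a TATA box (TATAAA), in capitals, and the AP-1 letters TGANTCA are also in capitals.
Areg: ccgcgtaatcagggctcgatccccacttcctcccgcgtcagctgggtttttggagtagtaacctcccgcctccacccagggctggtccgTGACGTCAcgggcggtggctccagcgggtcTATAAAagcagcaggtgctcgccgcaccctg
Flt1: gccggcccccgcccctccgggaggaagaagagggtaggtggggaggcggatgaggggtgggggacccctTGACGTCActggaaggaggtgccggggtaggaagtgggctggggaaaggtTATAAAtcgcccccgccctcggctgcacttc
Maff: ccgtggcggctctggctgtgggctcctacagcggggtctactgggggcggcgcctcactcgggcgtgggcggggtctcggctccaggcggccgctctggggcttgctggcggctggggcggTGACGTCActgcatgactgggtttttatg
Zfp36l1: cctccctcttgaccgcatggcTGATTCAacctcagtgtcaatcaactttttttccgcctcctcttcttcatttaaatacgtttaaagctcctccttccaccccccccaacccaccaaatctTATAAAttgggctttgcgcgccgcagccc
These stretches lie at chr5:91139449-91139598 (Areg, plus strand), chr5:147726012-147726161 (Flt1, minus strand), chr15:79347370-79347519 (Maff, plus strand) and chr12:80113014-80113163 (Zfp36l1, minus strand). In Areg and Flt1, the latter encoding a VEGF receptor, the CRE began 61 and 81 bases before the start and the TATA box 31 bases before it. In Maff the CRE began 29 bases before the start, and in Zfp36l1 the TATA box began 29 bases before it. A match to these letters is a description and shows no binding.

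In the WT cells that chose them, the genes covered a wide range of levels. Fosl2 moved most: it read 32.4, 16.7 and 19.2 CPM at 0 h, 839, 1180 and 912 CPM at 4 h and 25.7, 30.6 and 26.4 CPM at 20 h. Its 4 h difference was 5.16 on the log2(CPM + 1) scale, followed by the antisense RNA AC119228.1 (4.04), the magnesium transporter Slc41a1 (3.62), Ramp3, which encodes a partner of calcitonin-type receptors (3.58), the metalloprotease gene Adamts6 (3.29), the urokinase receptor gene Plaur (3.27), Egr1 (3.11) and the histone H3K27 demethylase gene Kdm6b (3.05). The median difference over the 129 genes was 1.898 at 4 h and -0.2 at 20 h. Per kilobase of counted length, the highest 4 h levels in WT cells were those of Cd40lg (727 CPM per kb), Zfp36l1 (587), Dusp2 (546) and Vsir (543), and the lowest was that of Flt1. Just inside the 4 h threshold were Cyp11a1 (1.501), Pfkfb3 (1.504) and Samsn1 (1.504), and just outside it Aoc2 (1.49), 4930426L09Rik (1.485) and A130071D04Rik (1.468). Just inside the 20 h threshold were Aig1 (0.469), Plgrkt (0.455) and Itgav (0.435), and just outside it Gpr174 (0.508), Psd (0.513) and Grasp (0.514). Of the 706 genes that reached the 4 h threshold, 392 were also at least 1.5 above 0 h at 20 h. They are called sustained genes here and serve as the comparison, having been chosen on the same libraries.

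**Figure D1:**
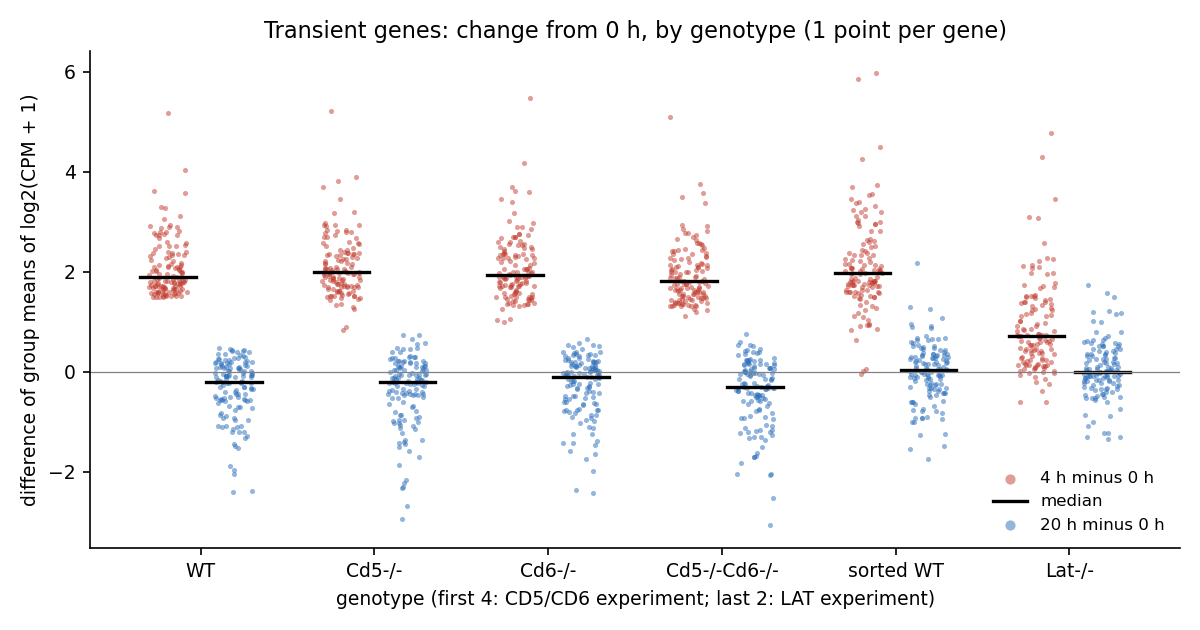
Change of each of the 129 genes from 0 h to 4 h (red) and from 0 h to 20 h (blue) in the 6 genotypes, as the difference between group means of log2(CPM + 1). Points are genes and black bars are medians. The 4 h median lay between 1.805 and 1.986 in WT, Cd5-/-, Cd6-/-, Cd5-/-Cd6-/- and sorted WT cells and was 0.715 in Lat-/- cells.

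The rise and fall came back in sorted WT cells, whose libraries had no part in choosing the genes. At 4 h, 125 of the 129 genes (96.9%) were higher than at 0 h by more than 2-fold with an adjusted p under 0.05 in edgeR's quasi-likelihood test, the criterion for all calls below, against 8.05% of all 27780 genes tested. All 129 genes had reads in the LAT experiment and were tested. The median log2 fold change was 2.65, and 2.63 when 5 genes without a read in a group were set at their bound, against 0 for all genes and 2.29 for sustained genes. Between 4 h and 20 h, 123 genes (95.3%) were called lower, against 9.32% of all genes and 16.1% of sustained genes, with a median log2 fold change of -2.75. Not called higher at 4 h were Clec4e, Ccl22, Ankrd33b and the ribosomal protein gene Rps10, and not called lower at 20 h were Mdn1, Swap70, AC124502.5, Clec4e, Ccl22 and Ankrd33b. On the scale of the rule itself, 88 of the 129 (68.2%) met both thresholds in sorted WT cells, against 0.436% of all genes.

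At 20 h, 16 of the genes (12.4%) were still called higher than at 0 h in sorted WT cells, close to the 10.8% of all genes, and 11 (8.53%) were called lower, against 12.7%. Among those that averaged 50 counts or more, the highest were Cd24a, a small GPI-anchored glycoprotein (log2 fold change 2.65, SE 0.20, adjusted p = 2.3e-40), Swap70, a signaling and actin-binding protein (1.35, SE 0.19, adjusted p = 1.28e-11), Fosl2 (1.28, SE 0.16, adjusted p = 3.11e-15) and Cd69, the early activation receptor (1.10, SE 0.15, adjusted p = 1.08e-12). Cd24a started from 58, 49 and 52 reads at 0 h in sorted WT cells, but from 1743, 611 and 2243 reads in the magnetically isolated WT cells that chose the genes. Among those below their start were Ramp3 (-1.94, SE 0.18, adjusted p = 3.85e-27), Bcl6, a transcriptional repressor (-1.65, SE 0.17, adjusted p = 5.67e-22), and Bach1, a heme-regulated repressor (-1.14, SE 0.16, adjusted p = 2.93e-12). The others called lower were Gm15832, Tox2, Tet2, Rrad, Gm9856, E430024P14Rik, Gm26873 and Insl6.

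Some genes were almost silent before stimulation, so only counting ratios can be given. Summed over 3 libraries, the read count of 1700016P03Rik went from 2 at 0 h to 550 at 4 h in sorted WT cells, a ratio of 309 with an exact 95% interval of 85 to 2550. Mir212 inside it had 0 reads at 0 h and 190 at 4 h, at least 71.1-fold higher against a floor of 3 counts over the group. Samd4, an RNA-binding translational repressor, went from 1 to 705 reads (ratio 791, interval 142 to 31300), and Syt13, a synaptotagmin, rose 366-fold (interval 65.2 to 14500). Intervals and floors cover counting error only.

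Loss of CD5, CD6 or both left the rise and fall in place. In Cd5-/- cells, 129 of 129 genes were called higher at 4 h than at 0 h (8.2% of all genes) and 129 were called lower at 20 h than at 4 h (12.5%). In Cd6-/- cells the counts were also 129 (7.72%) and 129 (12.5%), and in Cd5-/-Cd6-/- cells they were 129 (7.57%) and 127 (13.4%), with Aig1 and Dnajc27 not called. Median log2 fold changes at 4 h were 2.62, 2.46 and 2.39 in Cd5-/-, Cd6-/- and Cd5-/-Cd6-/- cells, and from 4 h to 20 h they were -3.24, -2.9 and -2.85. With both 0 h libraries 2 that go against their labels left out, all 129 genes were again called higher at 4 h in each genotype, and the 4 h medians were 2.62, 2.52 and 2.36. Both thresholds of the rule were met by 113 genes in Cd5-/- cells (87.6%, against 0.437% of all genes), by 102 in Cd6-/- cells (79.1%, against 0.434%) and by 94 in Cd5-/-Cd6-/- cells (72.9%, against 0.356%). Without both libraries these were 113 genes in Cd5-/- cells (against 0.461% of all genes) and 101 in Cd6-/- cells (78.3%, against 0.492%). Markers of other cells also differed with time in these magnetically isolated cells. In WT cells erythroid and platelet markers (5 genes) summed to a median of 1960, 1030 and 12.9 CPM at 0 h, 4 h and 20 h and myeloid markers to 159, 28.3 and 1.18 CPM, and both sums were also lowest at 20 h in the 3 knockout genotypes. In sorted WT cells the erythroid and platelet sum was at most 1.66 CPM in any library. The part of such cells in the rise and fall was not tested.

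**Figure D2:**
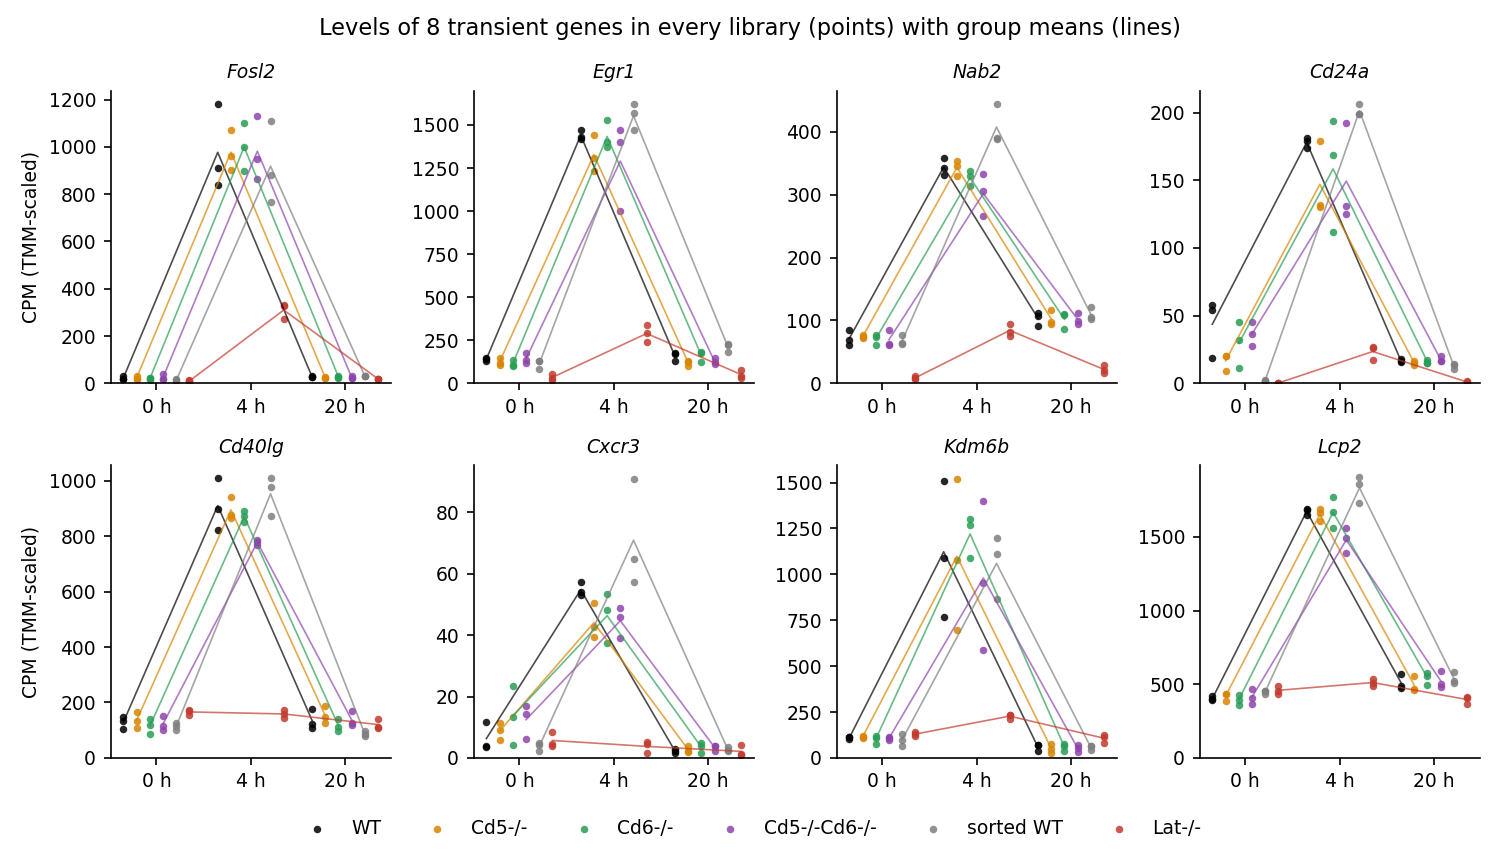
Levels of Fosl2, Egr1, Nab2, Cd24a, Cd40lg, Cxcr3, Kdm6b and Lcp2 in every library, as CPM scaled by TMM factors (y axis, from 0), at 0 h, 4 h and 20 h. Points are libraries and lines join group means of the 6 groups. Lat-/- libraries lie below all others at 4 h, and for Cxcr3, Cd40lg and Lcp2 they stay near their 0 h level.

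Few members were called higher at 20 h than at 0 h, beyond 2-fold, in these genotypes. In Cd5-/- cells 2 were called, Dhrs9 and AC124502.5 (1.55%, against 12.5% of all genes), with 5 called without replicate 1 and 3 without replicate 3. In Cd6-/- cells 3 were called, the same genes and Cst6, a cystatin (2.33%, against 11.4%), with 7 called without replicate 1, 1 without replicate 2 and 1 with both of the doubtful 0 h libraries left out. In Cd5-/-Cd6-/- cells 4 were called, these 3 and Aig1 (3.1%, against 12.3%), with 7 called without replicate 1. The choice of genes had kept 20 h levels low in the WT cells of the same experiment.

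The genotypes could be compared with each other at 4 h, since none of the knockout libraries chose the genes. Between Cd5-/-Cd6-/- and Cd5-/- cells, edgeR called 0 members (0.579% of all genes), with 9 at an unadjusted p under 0.05 and 0 called by DESeq2. Without replicate 1 the count was 2, and without replicate 3 it was 1. Between Cd5-/-Cd6-/- and Cd6-/- cells it called 0 (0.0155% of all genes), with 4 at an unadjusted p under 0.05 and 0 by DESeq2. Between Cd6-/- and Cd5-/- cells 3 members were called (2.33%, against 0.635%), all lower in Cd6-/- cells. Kcnf1, a potassium channel subunit, read 14.1, 7.78 and 8.67 CPM in Cd5-/- and 5.17, 3.28 and 2.58 CPM in Cd6-/- cells, without overlap (log2 fold change -1.46, SE 0.34, adjusted p = 0.0115). Nmnat2, an enzyme of NAD synthesis, read 14.9, 10.7 and 13 against 7.87, 5.63 and 5.29 CPM (-1.04, SE 0.26, adjusted p = 0.0249), and Tnfrsf19, a TNF receptor family member, read 14.1, 9.74 and 16.1 against 7.56, 5.45 and 5.9 CPM (-1.07, SE 0.28, adjusted p = 0.0383). The count fell to 2 without replicate 1 and to 1 without replicate 3.

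Against WT cells at 4 h, differences are values only, because the WT libraries chose genes that were high there. The median over the 129 genes was -0.002 in Cd5-/- cells, -0.071 in Cd6-/- cells and -0.115 in Cd5-/-Cd6-/- cells on the log2(CPM + 1) scale, and 95 of 129 genes were below 0 in Cd5-/-Cd6-/- cells. Over 10966 expressed genes the medians were -0.011, 0.002 and 0.014. Differences beyond 0.5 in either direction were found for 7, 3 and 5 of the genes (5.43%, 2.33% and 3.88%), against 2.99%, 2.42% and 2.63% of the expressed genes. The lowest and highest values were those of Clec4e (-0.96) and Kcnf1 (0.74) in Cd5-/- cells, Nmnat2 (-0.62) and Cxcl10 (0.98) in Cd6-/- cells, and Cst6 (-0.87) and Cxcl10 (1.27) in Cd5-/-Cd6-/- cells.

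Without LAT the early rise was reduced but not lost, and the genes split by how much of it remained. In Lat-/- cells, 64 of the 129 genes (49.6%) were called higher at 4 h than at 0 h, against 3.08% of all genes and 35.2% of sustained genes, and the median log2 fold change was 1.26 (1.22 with 6 genes at their bound) against 0.53 for sustained genes. From 4 h to 20 h, 57 genes (44.2%) were called lower, against 2.1% of all genes, with a median of -0.96. Only 12 genes (9.3%) met both thresholds of the rule in Lat-/- cells, against 0.238% of all genes. At 4 h itself, 106 genes (82.2%) were called lower in Lat-/- than in sorted WT cells, against 6.23% of all genes and 93.1% of sustained genes, and 1 gene, Cxcl10, was called higher (0.775%, against 5.51%). Every sorted WT library was above every Lat-/- library at 4 h for 119 of the genes, against 16.5% of all genes. In bulk samples, fewer cells that respond and less RNA per responding cell cannot be told apart.

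Tested as a difference between the responses, the rise was smaller in Lat-/- than in sorted WT cells for 77 genes (59.7%, against 4.34% of all genes and 80.9% of sustained genes), with a median difference of -1.48. It was larger for 1 gene (0.775%, against 4.37%). Of the 125 genes called in sorted WT cells, 41 were called in Lat-/- cells and not called smaller, 23 were called in Lat-/- cells and also rose less, 54 were not called in Lat-/- cells and rose less, and 7 were neither called in Lat-/- cells nor called smaller. A response not called smaller was not shown to be equal. For the 41 genes the log2 rise in Lat-/- cells had a median of 77.1% of that in sorted WT cells, and for the 23 genes 48.9%. Samd4, 1 of the 41, had fitted rises of 9.14 in sorted WT and 5.41 in Lat-/- cells, from 1 read at 0 h in each. Among the 392 sustained genes, all called in sorted WT cells, the same classes held 65, 73, 244 and 10 genes.

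**Figure D3:**
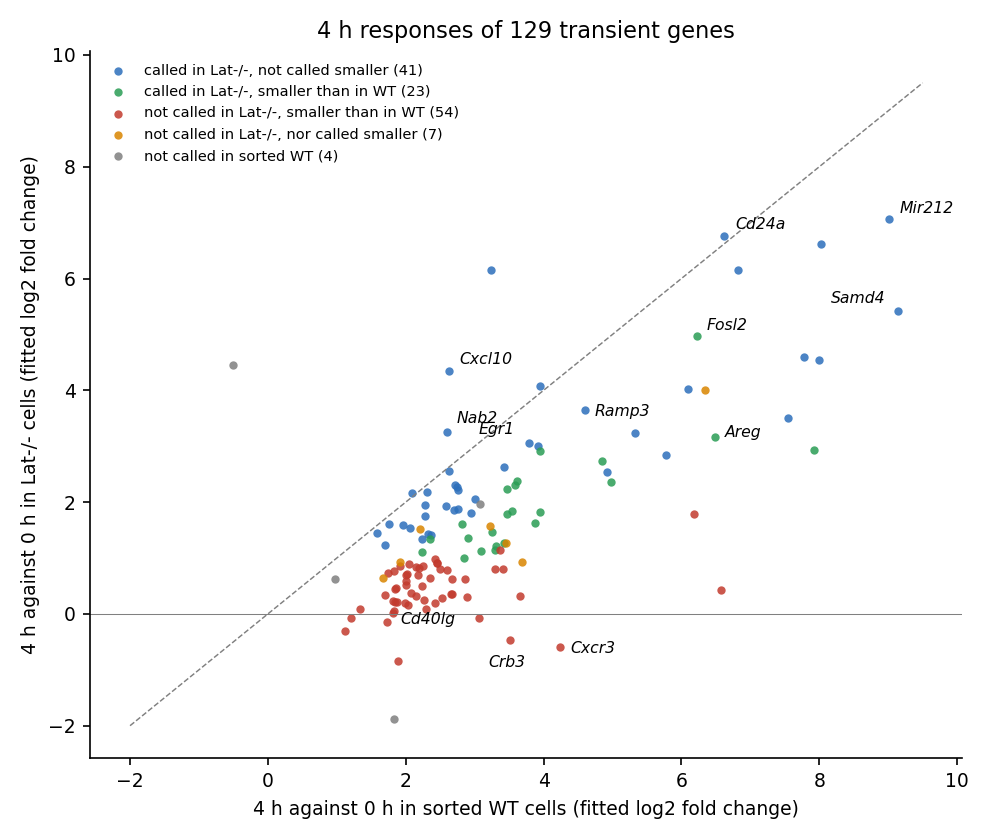
Fitted log2 fold change from 0 h to 4 h of the 129 genes in sorted WT cells (x axis) and in Lat-/- cells (y axis), with 1 point per gene coloured by class. The dashed line marks equal responses. Nab2 and Cd24a lie on or above it, Cd40lg, Cxcr3 and Crb3 near 0 on the y axis, and fitted values of genes with almost no reads at 0 h depend on the prior count.

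The transcription factors Egr1, Fosl2 and Maff and the corepressor Nab2 kept much of their rise without LAT, with 81%, 79.9%, 73.7% and 126% of the log2 fold change of sorted WT cells. In this and the following paragraphs, values with an SE are log2 fold changes, and a difference in response is that in Lat-/- cells minus that in sorted WT cells. Egr1, an immediate early zinc finger factor, read 128, 84.3 and 127 CPM at 0 h and 1570, 1620 and 1470 CPM at 4 h in sorted WT cells, against 31.1, 16.6 and 55.8 CPM at 0 h and 337, 239 and 292 CPM at 4 h in Lat-/- cells. The Lat-/- libraries were lower at both times without overlap, and the rise was 3.78 (SE 0.16, adjusted p = 1.43e-114) in sorted WT and 3.06 (SE 0.16, adjusted p = 1.69e-78) in Lat-/- cells on the log2 scale. Nab2 read 62.6, 76.8 and 63.4 CPM at 0 h and 444, 391 and 388 CPM at 4 h in sorted WT cells, against 8.14, 6.57 and 11.6 CPM at 0 h and 94.9, 75.2 and 82.4 CPM at 4 h in Lat-/- cells. It started lower in Lat-/- cells, and the difference in response of 0.67 (SE 0.22, adjusted p = 0.0177) was under the 2-fold threshold. Fosl2 reached 880, 1110 and 766 CPM in sorted WT and 325, 274 and 331 CPM in Lat-/- cells at 4 h, and its response differed by -1.25 (SE 0.22, adjusted p = 3.38e-07). Maff, at 28.6, 22.2 and 36.3 CPM in Lat-/- cells at 4 h against 68.2, 67.3 and 63.3 CPM, also rose less (-1.04, SE 0.28, adjusted p = 0.00197).

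Among other factors, Per1 and Bcl6 kept 67.9% and 64.2% of the log2 rise, and Nfatc1 and Per2 kept 23.7% and 10.9%. Nfatc1, the NFAT family member induced by NFAT itself, read 1180, 1340 and 892 CPM in sorted WT cells at 4 h and 293, 232 and 279 CPM in Lat-/- cells, where its rise was 0.63 (SE 0.15, adjusted p = 0.000279) and was not called, being under 2-fold. Bcl6 read 266, 282 and 206 CPM in sorted WT and 118, 84.1 and 111 CPM in Lat-/- cells at 4 h, and its rise was called in Lat-/- cells and smaller than in sorted WT cells (-1.24, SE 0.22, adjusted p = 4.28e-07). Per1 and Per2 encode repressors of the circadian clock. Per1 rose to 134, 133 and 150 CPM in Lat-/- cells (1.88, SE 0.16, adjusted p = 8.3e-31), with no call on the difference of its response (-0.89, SE 0.21, adjusted p = 0.000494). Per2 stayed at 5.83, 8.51 and 4.53 CPM there (0.28, SE 0.24, adjusted p = 0.583) against 30.1, 31.4 and 17.2 CPM in sorted WT cells, and its response differed by -2.25 (SE 0.34, adjusted p = 1.15e-09).

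The ligand genes Cd40lg, Fasl, Areg and Inhba were each lower at 4 h in Lat-/- cells, whereas the chemokine gene Cxcl10 was higher. Cd40lg, the gene of CD40 ligand, by which helper T cells activate B cells, was at 125, 102 and 114 CPM at 0 h and 976, 1010 and 873 CPM at 4 h in sorted WT cells. Lat-/- cells read 172, 170 and 156 CPM at 0 h and 158, 144 and 174 CPM at 4 h, so that their levels before and after stimulation overlapped, and the response differed by -3.13 (SE 0.21, adjusted p = 9.34e-45). Fasl, the gene of the death ligand, rose to 48.7, 51.7 and 38.2 CPM in Lat-/- cells (1.63, SE 0.17, adjusted p = 1.7e-20) against 204, 156 and 175 CPM, 42.1% of the log2 rise in sorted WT cells. Areg was low everywhere, at 9.3, 8.89 and 10.5 CPM in sorted WT and 1.74, 0.88 and 1.14 CPM in Lat-/- cells at 4 h, and its response differed by -3.31 (SE 0.88, adjusted p = 0.00195). In Lat-/- cells its reads then went to 0 at 20 h, at least 30.7-fold lower. Inhba, which encodes a subunit of activin A, read 6.36, 7.1 and 2.53 CPM in sorted WT and 0.331, 0.411 and 0.104 CPM in Lat-/- cells at 4 h (log2 fold change -4.21, SE 0.55, adjusted p = 5.16e-13).

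Among receptors, Cxcr3, the receptor of interferon-induced chemokines, had the largest difference in response among members that averaged 50 counts or more (-4.82, SE 0.31, adjusted p = 2.84e-51). It read 4.9, 2.11 and 4.24 CPM at 0 h and 90.9, 64.7 and 57.2 CPM at 4 h in sorted WT cells, against 4.64, 3.92 and 8.5 CPM at 0 h and 4.43, 1.53 and 5.31 CPM at 4 h in Lat-/- cells. No rise was seen in any Lat-/- library beyond the spread at 0 h. Tnfrsf1b, the gene of TNF receptor 2, rose to 261, 227 and 228 CPM in Lat-/- cells against 1030, 1200 and 685 CPM (-2.09, SE 0.21, adjusted p = 1.65e-20). Cd69 reached 497, 404 and 396 CPM against 1730, 1740 and 1400 CPM, and its rise was called in Lat-/- cells (1.79, SE 0.15, adjusted p = 8.55e-30) and differed from that in sorted WT cells by -1.68 (SE 0.21, adjusted p = 9.15e-14). Ramp3 kept 79.4% of its log2 rise, reaching 126, 130 and 147 CPM in Lat-/- cells against 324, 382 and 285 CPM. F2r, the thrombin receptor, was at 71.4, 74.5 and 68.8 CPM against 282, 395 and 181 CPM (-2.49, SE 0.22, adjusted p = 7.33e-27). Vsir, which encodes the inhibitory receptor VISTA, was at 967, 1060 and 1050 CPM against 3210, 3360 and 2560 CPM (4 h difference -1.57, SE 0.15, adjusted p = 2.24e-24).

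Signaling proteins of the TCR pathway were also present in the set. Those named in this paragraph other than Dusp2 and Zfp36l1 were picked for their role after their values were seen. Lcp2, whose product SLP-76 works beside LAT, was at 457, 456 and 434 CPM at 0 h and 1910, 1860 and 1730 CPM at 4 h in sorted WT cells and at 453, 488 and 436 CPM at 0 h and 539, 489 and 507 CPM at 4 h in Lat-/- cells. Its rise without LAT was 0.16 (SE 0.15, adjusted p = 0.634), 7.69% of that in sorted WT cells. The adaptor Sla, which lowers TCR levels, and the phosphatase Ptpn22, which acts on LCK and ZAP-70, were likewise smaller in their response (-2.21, SE 0.21, adjusted p = 4.39e-23 for Sla and -1.69, SE 0.21, adjusted p = 7.71e-14 for Ptpn22). Cblb, a ubiquitin ligase that restrains activation in the absence of CD28, rose in both, to 690, 838 and 507 CPM in sorted WT and 534, 515 and 542 CPM in Lat-/- cells, with overlapping libraries and no call on the difference (-0.37, SE 0.21, adjusted p = 0.296). Dusp2, a nuclear MAP kinase phosphatase, reached 189, 208 and 201 CPM against 1260, 1110 and 1040 CPM, and Zfp36l1 reached 360, 293 and 399 CPM against 1840, 1990 and 1460 CPM. Neither was called higher at 4 h in Lat-/- cells, and both responses were smaller (-1.72, SE 0.21, adjusted p = 3.2e-14 for Dusp2 and -2.24, SE 0.21, adjusted p = 7.3e-24 for Zfp36l1).

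Kdm6b, Tet2 and Jarid2 act on chromatin, and each had a smaller response in Lat-/- cells. Kdm6b was at 1200, 1110 and 868 CPM in sorted WT cells at 4 h and at 234, 213 and 236 CPM in Lat-/- cells, from 140, 122 and 128 CPM at 0 h, and its response differed by -2.60 (SE 0.21, adjusted p = 2.41e-31). Tet2, a 5-methylcytosine dioxygenase, and Jarid2, a Polycomb partner, both named after their values were seen, differed by -1.39 (SE 0.25, adjusted p = 1.01e-06) and -1.31 (SE 0.22, adjusted p = 4.88e-08). Among the non-coding members, AC119228.1 (chr19:29373417-29384471, minus strand) reached 17.6, 23.8 and 11.3 CPM in sorted WT and 6.7, 2.88 and 6.81 CPM in Lat-/- cells. The 1700016P03Rik host reached 9.58, 8.48 and 6.04 CPM in sorted WT cells and 2.36, 2.41 and 1.2 CPM in Lat-/- cells, and in Lat-/- cells its reads went from 1 to 121 (ratio 133, exact 95% interval 23.4 to 5290). Mir17hg reached 37.4, 29.4 and 20.8 CPM in sorted WT and 12, 14.1 and 11.5 CPM in Lat-/- cells and rose less (-1.02, SE 0.31, adjusted p = 0.00937). E430024P14Rik, a non-coding RNA from the strand opposite Tagap, read 2.86, 2.33 and 1.71 CPM at 0 h and 0.952, 0.939 and 1.92 CPM at 4 h in Lat-/- cells, and its response differed by -2.74 (SE 0.52, adjusted p = 3.26e-06).

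Some calls on single genes depended on a library or setting. The rise in Lat-/- cells lost its call without replicate 1 for Bach1 (log2 fold change 0.95), Plxdc2 (2.2) and Kcnf1 (1.96), and without replicate 2 for Nmnat2 (0.76), which also lost it with library totals, the filter on low counts and the compared groups alone. The lower 4 h level in Lat-/- cells lost its call without replicate 2 for Maff (-0.99) and Flt1 (-1.15), without replicate 3 for Syt13 (-1.09), without replicate 1 for Gm43430 (-1.38), and without replicate 1 or 2 for Per1 (-0.96 and -0.98), which also lost it with library totals (-0.96). AC119228.1 (-1.69) lost it under DESeq2.

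Before stimulation, 10 members already differed between Lat-/- and sorted WT cells (7.75%, against 0.961% of all genes), and all 10 were lower in Lat-/- cells (0.814% of all genes were called lower). With edgeR's filter on low counts the number was 6. Nab2 was at 8.14, 6.57 and 11.6 CPM against 62.6, 76.8 and 63.4 CPM (-2.94, SE 0.17, adjusted p = 4.92e-66). Lrrc32, the gene of GARP, which holds latent TGF-β on regulatory T cells, was at 4.44, 2.94 and 7.93 CPM against 17.3, 16.4 and 24.6 CPM (-1.92, SE 0.20, adjusted p = 5.11e-19). Ndrg1, a stress-responsive protein linked to T cell anergy, was at 7.31, 8.25 and 8.62 against 31, 26.2 and 29.9 CPM (-1.85, SE 0.17, adjusted p = 4.62e-23), and Egr1 differed by -1.71 (SE 0.15, adjusted p = 1.07e-25). The groups did not overlap for any of these 4 genes. Among the others that were lower were Cd24a, Swap70, Gem, Plxdc2 and Nmnat2. For Nab2, Ndrg1 and Cd24a the log2 rise at 4 h was 126%, 104% and 102% of that in sorted WT cells, although their 4 h levels stayed lower.

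At 20 h, members were called in both directions between the genotypes. In Lat-/- cells 19 (14.7%, against 12.1% of all genes) were called higher than in sorted WT cells and 26 (20.2%, against 12.3% of all genes and 96.4% of sustained genes) were called lower. The share called higher was near that of all genes, and without replicate 1 it was 12 genes (9.3%, against 10.6%). At the same time NK cell markers (4 genes) summed to between 50 and 66.8 CPM in Lat-/- cells, without a read of Ncr1, and to between 0.398 and 1.11 CPM in sorted WT cells. Over all libraries of the LAT experiment Klrd1 reached 66.7 CPM, whereas Klrb1c, Klre1 and Ncr1 reached at most 3.02, 1.69 and 1.76 CPM. B cell markers summed to between 851 and 1140 CPM against 292 to 336 CPM, with Cd22 and Pax5 at 0 in both. In that experiment Ighm reached 1150 CPM and the next highest B cell marker, Cd79b, 3.75 CPM. The 2 sums thus rested mostly on Klrd1 and Ighm, and the part of NK or B cells in the 20 h differences was not tested. Bach1 had the largest difference among those that averaged 50 counts or more, at 144, 159 and 116 CPM in Lat-/- cells against 14.5, 16.3 and 20.7 CPM (3.03, SE 0.16, adjusted p = 3.31e-74). It had been at 301, 368 and 294 CPM in sorted WT and 117, 77.5 and 113 CPM in Lat-/- cells at 4 h, so that it fell in the former (-4.23, SE 0.17, adjusted p = 4.67e-130) and did not fall in the latter (0.45, SE 0.15, adjusted p = 0.0328). Bcl6 was at 63, 45.2 and 52.5 CPM against 7.02, 5.97 and 8.79 CPM at 20 h (2.88, SE 0.17, adjusted p = 1.04e-62), and F2r was at 57.1, 78.7 and 64.6 against 12.2, 15.5 and 17.9 CPM (2.13, SE 0.16, adjusted p = 1.99e-38). For these 3 genes every Lat-/- library was above every sorted WT library at 20 h and below it at 4 h. Vsir (1.40, SE 0.15, adjusted p = 4.23e-20) was also higher at 20 h.

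Among the genes lower at 20 h without LAT, several had been lower at 0 h. Cd24a was at 0.607, 0.408 and 1.85 CPM against 14.5, 10.8 and 13.2 CPM (-3.74, SE 0.22, adjusted p = 7.15e-64), and Lrrc32 at 1.72, 0.557 and 2.86 CPM against 18.4, 18.5 and 17.4 CPM (-3.42, SE 0.22, adjusted p = 1.11e-51). Swap70 differed by -2.48 (SE 0.20, adjusted p = 6.76e-33), Nab2 by -2.32 (SE 0.16, adjusted p = 1.22e-46) and Egr1 by -2.06 (SE 0.15, adjusted p = 1.72e-39). Cd69, which did not differ by the call at 0 h, was at 42.7, 28.1 and 101 CPM against 295, 311 and 338 CPM (-2.46, SE 0.16, adjusted p = 1.65e-54), without overlap.

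**Figure D4:**
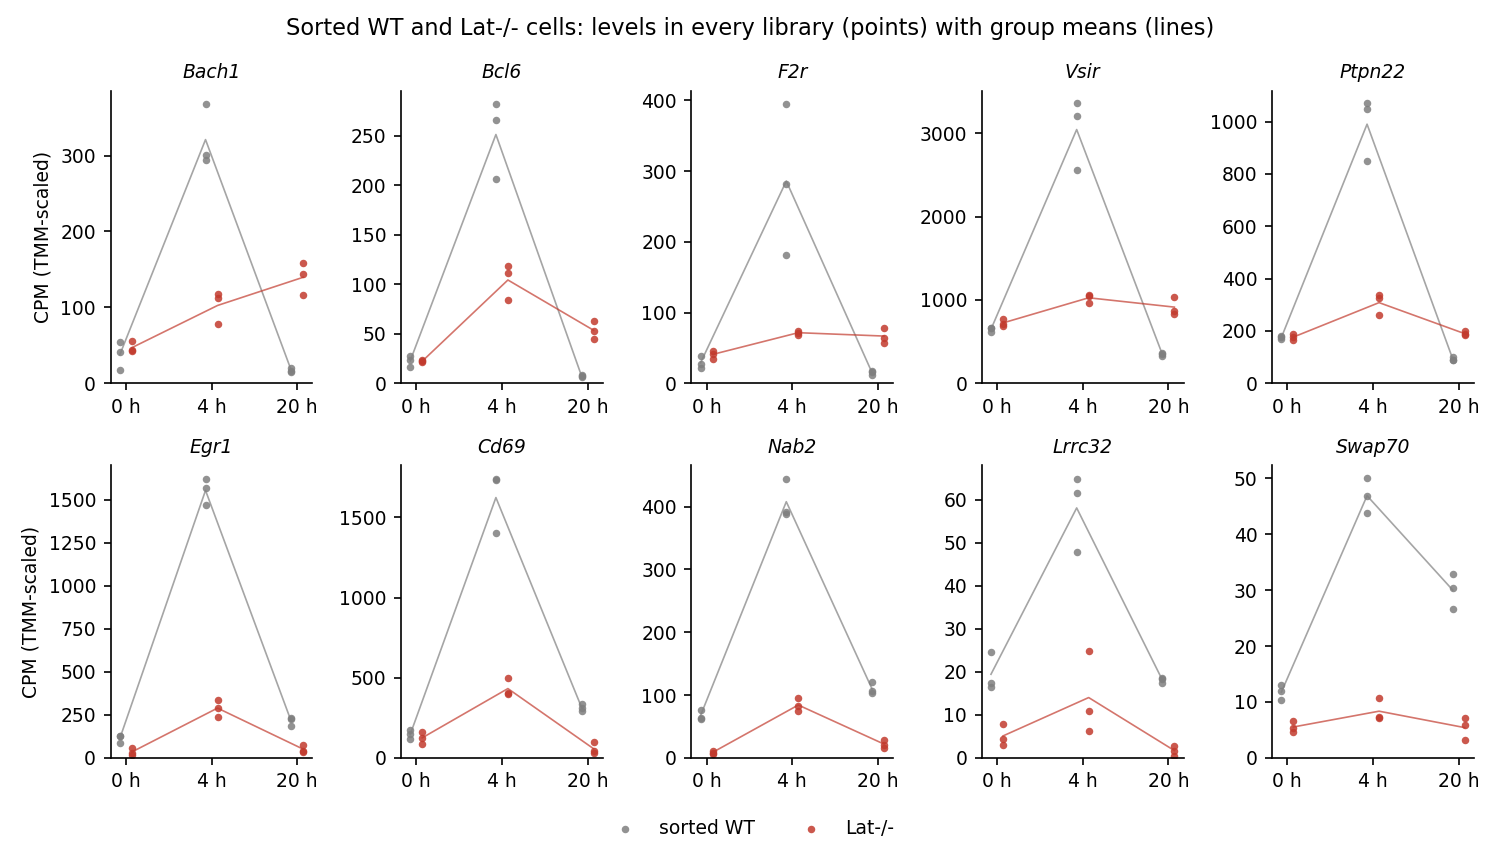
Levels of Bach1, Bcl6, F2r, Vsir, Ptpn22 (upper row), Egr1, Cd69, Nab2, Lrrc32 and Swap70 (lower row) at 0 h, 4 h and 20 h in sorted WT (grey) and Lat-/- (red) cells, as CPM scaled by TMM factors. Points are libraries and lines join group means. At 20 h Lat-/- libraries lie above for the upper row (Bach1 144, 159 and 116 CPM against 14.5, 16.3 and 20.7) and below for the lower row (Nab2 21, 16.3 and 28.8 CPM against 106, 121 and 103).

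The make-up of the set was set beside that of other expressed genes, without a test. Long non-coding RNAs made up 15 of the 129 (11.6%), against 2.55% of sustained genes and 3.81% of 10962 genes at 1 CPM or more in WT cells at 4 h. Those with the largest 4 h differences in WT cells were AC119228.1 (4.04), Gm20743 (2.79), 1700016P03Rik (2.75), A930024E05Rik (2.51) and Gm15832 (2.33). The nonamer TTATTTATT was in the 3′ UTR of 17% of coding members (18 of 106), 7.73% of sustained genes (29 of 375) and 7.34% of all expressed coding genes (726 of 9886). Median 3′ UTR lengths were 1340, 935 and 999 bases, so the shares were also taken by length. For UTRs under 1000 bases they were 11.9%, 5.61% and 3.01%, from 1000 to 2000 bases 17.2%, 10.2% and 7.77%, and above 2000 bases 22.9%, 9.88% and 15.3%. These shares are descriptions of the sets. By response to the loss of LAT, the nonamer was in 11 of 52 UTRs (21.2%) of genes called in Lat-/- cells and in 7 of 50 (14%) of those not called.

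**Figure D5:**
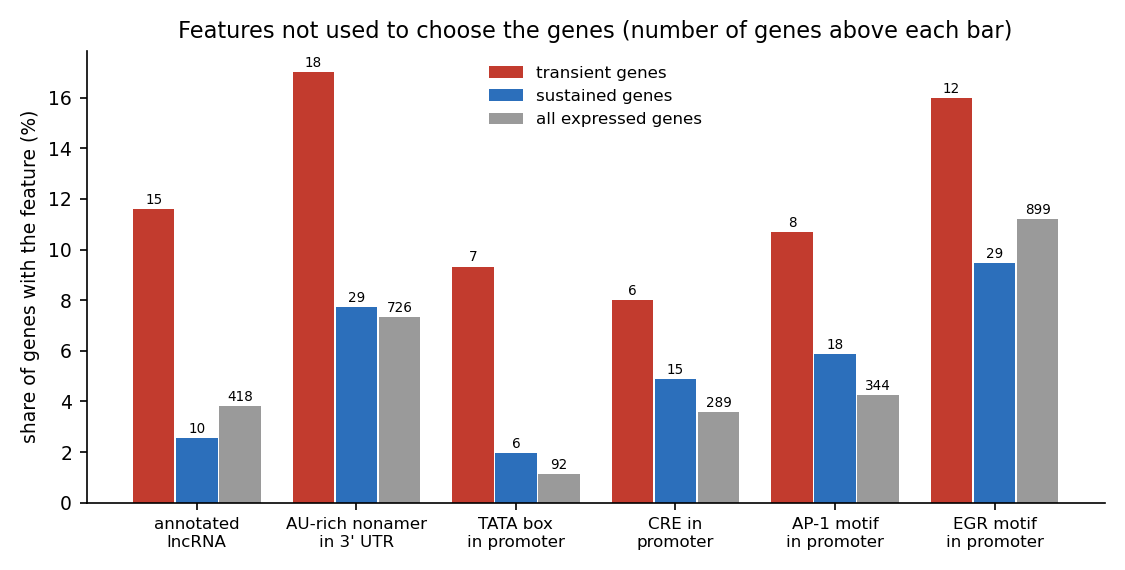
Share, in percent, of members, sustained genes and all genes at 1 CPM or more in WT cells at 4 h that are long non-coding RNAs, hold the nonamer in the 3′ UTR, or hold a TATA box, a CRE, an AP-1 or an EGR motif in the promoter window. Numbers above the bars are genes with the feature. Members have the highest share for the 6 features drawn, resting on 6 to 18 genes each. Of the promoter motifs counted but not drawn, sustained genes had the higher share for TGACG (41.7% against 41.3% of members), NF-kB (6.19% against 5.33%) and the NFAT core (63.5% against 60%). Members were highest for the CArG box (2.67%, against 0.977% of sustained genes).

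Promoter motifs were searched in the 300-base windows of the 75 coding members that had one, on both strands except for the TATA box, which was searched on the sense strand from 50 to 11 bases before the start. TATAAA was found in 7 (9.33%), against 1.95% of sustained genes, 1.14% of expressed coding genes and 2.4% of all 32851 windows. The CRE TGACGTCA was found in 6 (8%), against 4.89%, 3.59% and 1.79%, and its shorter part TGACG, which every CRE contains, in 41.3%, against 41.7%, 34.2% and 20.8%. The AP-1 letters TGANTCA were in 10.7%, against 5.86%, 4.27% and 7.81%, and the EGR letters GCGNGGGCG in 16%, against 9.45%, 11.2% and 5.55%. Motifs for NF-kB (5.33%, against 6.19%, 5.03% and 4.51%), the CArG box (2.67%, against 0.977%, 1.14% and 1.63%) and the NFAT core GGAAA (60%, against 63.5%, 59% and 61.3%) were also counted. The CRE was in the windows of Areg, Flt1, Maff, Nr6a1, Rab11fip3 and Dnajc27, and the TATA box in those of Areg, Flt1, Zfp36l1, Tox2, Ecm1, Jarid2 and Clec4e.

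Several members lie next to or across other genes, and the use of strand in counting is not given in the sources used here. AC119228.1 lies on the strand opposite Cd274, whose mean level was 265 CPM against 11.7 CPM, Gm20743 lies opposite Xcl1 (123 against 2.64 CPM), and E430024P14Rik opposite Tagap (341 against 4.73 CPM), so reads of such pairs could not be told apart if strand was not used. Gm15832 and Rnf149 overlap on the same strand, 1700016P03Rik contains Mir212, and Tmem88 starts 0.27 kb past the end of Kdm6b on the same strand. In all, 30 members overlap another gene on the same strand, which is the higher of the pair in 7 cases, and 61 overlap one on the opposite strand, which is higher in 14.

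A few members were at or near 0 in the sorted cells or moved against the rest. Ccl22, a chemokine of dendritic cells, read 11.3, 7.35 and 10.7 CPM in magnetically isolated WT cells at 4 h and 0, 0 and 0.151 CPM in sorted WT cells. Clec4e, a receptor of myeloid cells, had 1 read over the 3 sorted WT libraries at 4 h, and Ankrd33b had 3. Summed myeloid and dendritic markers were also lower in sorted cells, dendritic markers (5 genes) lying between 5.36 and 7.24 CPM in magnetically isolated WT cells at 4 h and between 2.25 and 4.07 CPM in sorted WT cells, and their part in these values was not tested. Cxcl10, an interferon-induced chemokine, read 1.26, 1.28 and 1.55 CPM in sorted WT and 9.06, 2.17 and 7.44 CPM in Lat-/- cells at 4 h (2.19, SE 0.42, adjusted p = 2.18e-06). In magnetically isolated cells it read 2.42, 7.85 and 9.19 CPM in WT and 6.22, 37 and 14.2 CPM in Cd5-/-Cd6-/- cells, a range that overlapped.

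Genes of the same pathways were mostly outside the set. The lists below were chosen with earlier results of these data known, and each bracket gives the number called higher and lower at 4 h in sorted WT cells, then in Lat-/- cells. Among all 27780 genes tested these shares were 8.05% and 9.29% in sorted WT cells and 3.08% and 3.62% in Lat-/- cells. Of 40 immediate early factors, 17 reached the 4 h threshold in WT cells and 3 (Fosl2, Egr1 and Maff) were members (24 and 3, 19 and 4). Of 17 ERK feedback genes 7 reached the threshold and only Dusp2 was a member (11 and 2, 10 and 1). The 19 genes of NF-kB had no member among the 7 that reached it (9 and 0, 9 and 0). Of 10 genes of calcineurin and NFAT, Nfatc1 alone reached it and was a member (1 and 2, 1 and 0). Of 13 RNA decay factors, Zfp36l1 alone did (4 and 1, 1 and 0). From 4 h to 20 h in sorted WT cells, 27 of these immediate early factors and 11 of the ERK feedback genes were called lower. So were 8 genes of NF-kB, 2 of calcineurin and NFAT and 9 RNA decay factors, against 9.32% of all genes. A fall after 4 h was thus also called in genes outside the set.

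Cytokines (28 genes) had 5 at the threshold and Areg as member (14 and 3, 12 and 0), and chemokines (17) had 5, with Ccl22 and Cxcl10 as members (9 and 1, 7 and 0). TNF superfamily ligands (14) had 8, with Fasl and Cd40lg as members (9 and 1, 5 and 1). Checkpoint and costimulatory receptors (21) had 12, with Cd69 as the member (17 and 0, 11 and 0), and lineage factors (19) had 5, with Bcl6 (8 and 4, 5 and 2). Of 11 circadian genes 3 reached it, among them the members Per1 and Per2 (3 and 2, 1 and 2). SOCS and PIM genes (11 genes, 2 at the threshold; 5 and 2, 1 and 2), the BCL2 family (17, 3 at the threshold; 7 and 2, 4 and 1) and stress genes (18, 4 at the threshold; 8 and 4, 6 and 2) held no member. Neither did interferon-stimulated genes (17, 0 at the threshold; 0 and 16, 1 and 10) or Notch and HES genes (13, 0 at the threshold; 0 and 4, 0 and 1). From 4 h to 20 h in sorted WT cells, 10 cytokines, 4 chemokines, 8 TNF superfamily ligands, 9 receptors, 8 lineage factors and 5 circadian genes were called lower. In the lists of this paragraph without a member the numbers were 4, 6, 9, 6 and 1, in the order given. In all, 15 of the 129 genes were in any of the 16 lists.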

How the data were processed

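Libraries were made by the GenomEast platform with a kit that keeps the strand of the mRNA. Reads from 1 end were cleaned of adapter dimers (DimerRemover), aligned to the mouse genome GRCm38 (STAR) and assigned to genes (featureCounts), as the methods of the study and the submitters' processing notes state. What the authors deposited are the resulting counts, whole and unscaled, with a table for each experiment and a column for each library. The annotation release, the use of strand and how reads matching more than a single gene were treated are not given in the sources used here. GENCODE's annotation of GRCm38 named 55144 of the 55385 identifiers. Every column of counts belonged to a labelled library (0 were unused).

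The genes described, the role lists and the tests were chosen with earlier results of these data known. All libraries were assigned to a group by their labels. Genes with a read count of at least 1 were kept, each experiment was fitted alone with all its groups, TMM factors scaled the libraries, and comparisons used edgeR's quasi-likelihood test (edgeR 4.0.16, limma 3.58.1, R 4.3.3, data.table version 1.17.8) with Benjamini-Hochberg adjustment over all genes of the table. A call needs a fold change over 2 and an adjusted p under 0.05. SE is the size of the log2 fold change divided by the square root of the F statistic. Levels are CPM scaled by TMM factors, whereas the rule used column totals alone. A group without a read was set to a floor of 3 counts over its libraries (0.0663 to 0.146 CPM per library in the CD5/CD6 experiment and 0.105 to 0.169 CPM in the LAT experiment if set in each library), and ratios of 1 to 3 counts have exact 95% intervals. Both cover counting error only. The p-values rest on the spread between libraries of the same group, estimated jointly over all groups of an experiment and with information shared between genes. Each group had 3 libraries, called biological replicates in the labels. In the CD5/CD6 experiment this estimate included both 0 h libraries 2 that go against their labels, except in the fit without them. Scripts were tested on simulated data before use.

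Sequences and motifs came from RefSeq tables and the genome of GRCm38.p6 with the GENCODE annotation (Python 3.11.15, pandas 2.3.3, numpy 2.4.6, scipy 1.17.1, matplotlib 3.10.9). Genes named are Cd5, Cd6 and Lat, members in a role list, the 20 with the largest rise in WT cells, up to 5 per direction in each tested comparison with a mean of at least 50 counts, those nearest the thresholds, the 5 non-coding RNAs with the largest rise, and the 5 with the largest share of their response kept without LAT. Members that the text names beyond these were chosen after their values were seen, and some genes are not reported here. Alternatives were size factors of DESeq2 (DESeq2 1.42.0) or library totals in place of TMM, edgeR's filter on low counts, DESeq2's test, a fit of the compared groups alone, a replicate block, each replicate left out, adjusted p alone, other settings of the rule, and a fit that left out both 0 h libraries 2 whose Cd5 and Cd6 levels go against their labels.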

Additional observations from a re-analysis of the deposited data

Results flagged for a closer look

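The response at 4 h differed between Lat-/- and sorted WT cells by a test of the difference itself for 77 members with a smaller rise in Lat-/- cells and for 1 member with a larger rise. Cxcr3, Cd40lg and Crb3 had almost no rise in Lat-/- cells, while Fosl2, Plaur and Fasl rose in both genotypes and by less in Lat-/- cells.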

How the results depend on the processing

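Of 321 alternatives over 23 results, 284 kept the direction and stayed within 1.5 times the value reported, and 37 moved further. The number of genes was 83 with a pseudocount of 5 (69 of them among the 129), 163 with TMM-scaled CPM (121 shared), 158 with a pseudocount of 0.5 (127 shared), and between 123 and 132 with each replicate left out. Counts that were small in the first place moved most. Members called higher at 20 h than at 0 h came to 28.7% in sorted WT cells, 11.6% without CD5, 13.2% without CD6 and 14.0% without both when the adjusted p alone was the criterion. The shares of all genes in the Results are for the 2-fold call of the main fit. Those under the alternatives are not reported in this section, so its values cannot be set against all genes. With only the 84 genes at or below their 0 h level at 20 h in WT cells, these came to 0% in all 3 knockout genotypes of the CD5/CD6 experiment, and with only the 56 genes at or above 2 at 4 h to 0% in Cd5-/- and 1.79% in Cd5-/-Cd6-/- cells. In Cd6-/- cells the value was 1.55% with DESeq2's size factors (RLE) or library totals, and 0.775% with the compared groups alone or with both 0 h libraries 2 that go against their labels left out. In Cd5-/-Cd6-/- cells it was 1.84% for genes chosen on TMM-scaled CPM. With each replicate left out it ranged from 1.55% to 3.88%, 0.775% to 5.43% and 2.33% to 5.43% in the same 3 genotypes, in the order Cd5-/-, Cd6-/-, Cd5-/-Cd6-/-.

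Members higher in Lat-/- than in sorted WT cells at 4 h were 1.19% of those 84 genes and 0% of those 56. At 0 h, 4.65% differed with edgeR's filter on low counts, again without the share of all genes at hand. At 20 h, 25.6% were higher with the adjusted p alone and 22.6% among the 84 genes, with a range of 9.3% to 14.7% when replicates were left out. Between Cd6-/- and Cd5-/- cells at 4 h the value was 1.55% with library totals, 0.775% with the filter, 4.65% with the compared groups alone, 3.88% with the adjusted p alone and 0% among the 56 genes, and it ranged from 0.775% to 2.33% with replicates left out. Between Cd5-/-Cd6-/- and Cd5-/- cells it was 1.55% with the compared groups alone, 0.775% with a replicate block, and 0% to 1.55% with replicates left out. The cause of these shifts was not tested. With replicates left out, the share called higher at 4 h ranged from 95.3% to 97.7% in sorted WT and from 43.4% to 51.9% in Lat-/- cells, and the share with a smaller response in Lat-/- cells from 48.1% to 65.1%.

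The replicate block changed no other count by more than 1.5 times. Not every pair of libraries with the same number correlated above 0.1, so the numbers were not taken to pair the samples. Deviations from the group means had a mean correlation of 0.229 between libraries with the same number and -0.113 between those with another number in the CD5/CD6 experiment (145 of 198 same-number pairs over 0.1, lowest -0.113), and of 0.0705 and -0.0344 in the LAT experiment (15 of 45 over 0.1, lowest -0.217). In 33 of 36 and 17 of 18 libraries the mean correlation was highest with libraries of their own number, a hint from the data, not the design, that libraries with a number share something. Among single genes, no response or difference reversed under any alternative run, 7 values of the Lat-/- response and 8 of the 4 h difference lost their call and 1 of each gained one. With 3 libraries per group and 17784644 to 45222554 reads, differences under 2-fold were not called, and members with few reads at 0 h have only counting ratios.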
